A study of Mus musculus with 10 samples.

Results

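Dystrophin (Dmd), the transmembrane proteins bound to it, the cytoplasmic linker alpha-dystrobrevin (Dtna) and the dystrophin homologue utrophin (Utrn) were followed in the gastrocnemius of 10 mice. The set holds 8 genes out of 22180 measured on the arrays: Dmd, Dag1, Sgca, Sgcb, Sgcd, Sspn, Dtna and Utrn. A gene entered through a probe set, the group of array probes summarised into 1 value, that the platform annotation gives exactly 1 gene symbol. Where a gene had several such probe sets, the brightest on average was used. All 8 genes were found, and only Sspn had a choice, between 2 probe sets. The set was related in each mouse to B4galnt2, a glycosyltransferase of the same tissue.

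The series addresses what long-term dietary L-carnitine does to the muscle transcriptome of ageing mice. The mice were male NMRI, an outbred stock, and all had the same natural-ingredient diet based on wheat, maize and soybean meal. Control mice (n = 5) ate it unsupplemented, with under 5 mg carnitine per kg, and carnitine mice (n = 5) ate it with 1000 mg L-carnitine per kg added. Feeding began about 1 week after arrival at 3 weeks of age, in cages of 5, and mice were killed at 9, 15 or 18 months. The labels do not give the age of the array mice or say which mice shared a cage, so neither could be tested. Each array holds total RNA from 30 mg of frozen muscle of 1 mouse.

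Dystrophin ties the actin skeleton under the fibre membrane to a cluster of membrane proteins, and through alpha-dystroglycan, a product of Dag1, to laminin outside the cell. The sarcoglycans and sarcospan brace that cluster, while dystrobrevin and the syntrophins bind it from inside. Loss of dystrophin causes Duchenne muscular dystrophy, and loss of a sarcoglycan causes limb-girdle dystrophies. Utrophin gathers at the neuromuscular junction, the nerve contact of the fibre. The enzyme encoded by B4galnt2 adds a terminal sugar to glycoproteins there, alpha-dystroglycan among them, and its forced expression along the whole fibre in mice is known to spread utrophin beyond the junction.

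Start-site windows were taken for 7 of the 8 genes from the RefSeq table of assembly GRCm38.p6. For Dtna no window was taken, which does not mean that the table lacks it. Dmd has 2 entries, of which the upstream one is shown. The 250 bases before the start are printed for Dmd, for Sgca, which had the largest difference between the diets, for Sgcb, which had the steepest slope on B4galnt2, and for B4galnt2 itself. Capitals mark the E-box (CANNTG, the site class of the muscle regulatory factors), the GC box (GGGCGG or its reverse complement) and the CArG box (the site class of serum response factor). The strands are plus for Dmd and minus for the other 3, and each sequence reads 5′ to 3′ along the gene. The windows are chrX:82948620-82948869 for Dmd, chr11:94976328-94976577 for Sgca, chr5:73647738-73647987 for Sgcb and chr11:95914872-95915121 for B4galnt2.
Dmd: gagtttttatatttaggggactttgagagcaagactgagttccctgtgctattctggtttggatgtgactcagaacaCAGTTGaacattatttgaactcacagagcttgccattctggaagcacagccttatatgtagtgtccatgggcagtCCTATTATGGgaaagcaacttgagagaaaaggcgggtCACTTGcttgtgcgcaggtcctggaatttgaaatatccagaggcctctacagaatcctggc
Sgca: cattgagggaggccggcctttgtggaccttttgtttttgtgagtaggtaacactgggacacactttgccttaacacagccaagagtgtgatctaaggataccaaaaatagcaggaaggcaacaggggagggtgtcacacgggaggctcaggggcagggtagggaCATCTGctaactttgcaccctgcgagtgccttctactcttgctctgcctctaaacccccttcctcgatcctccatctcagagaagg
Sgcb: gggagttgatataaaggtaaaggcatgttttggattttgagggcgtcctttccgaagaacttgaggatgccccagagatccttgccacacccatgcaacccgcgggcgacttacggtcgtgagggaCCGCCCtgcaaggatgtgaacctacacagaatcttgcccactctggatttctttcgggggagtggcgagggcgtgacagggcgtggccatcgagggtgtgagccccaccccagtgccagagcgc
B4galnt2: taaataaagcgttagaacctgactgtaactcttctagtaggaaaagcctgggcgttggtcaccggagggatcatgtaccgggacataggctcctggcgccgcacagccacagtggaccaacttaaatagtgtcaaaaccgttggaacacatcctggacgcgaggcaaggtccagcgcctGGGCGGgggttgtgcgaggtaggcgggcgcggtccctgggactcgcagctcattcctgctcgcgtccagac

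The Dmd window holds 2 E-boxes and 1 CArG box, and the Sgca window holds 1 E-box. Those of Sgcb and B4galnt2 hold 1 GC box each and neither of the other motifs. Over all 32851 windows of this length in the table, 66.2% hold an E-box, 32.7% a GC box and 1.47% a CArG box, searched on both strands. RMA values combine probes along a whole transcript, so the arrays do not say which of the several Dmd starts was in use.

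Arrays correlated with each other at 0.969 to 0.994 across probe sets. The array of control replicate 5 had the narrowest values, its interquartile range being 2.20 where the remaining 9 ran from 2.39 to 2.59. The 15 muscle fibre markers, such as Acta1 and Ckm, averaged 13.02 to 13.07 in control and 12.96 to 13.12 in carnitine mice on the log2 scale, against a median probe set level of 5.80, as the tissue label states. In whole muscle, fewer cells of a type and less RNA per cell cannot be told apart. All values below are RMA log2 values, a difference is carnitine minus control, and its adjusted p comes from limma with Benjamini-Hochberg adjustment over all 22180 genes.

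None of the 8 genes differed between the diets beyond the spread between mice. With limma, 0 passed an adjusted p of 0.05, as did 0% of all genes, and 0 had an unadjusted p below 0.05, against 6.97% of all genes (696 higher and 850 lower, or 887 and 533 after the arrays were brought to 1 median). In 0 of the 8 were the diets fully separated, against 1.11% of all genes. The differences ran from -0.07 (Dmd) to 0.13 (Sgca), 6 positive and 2 negative, with a median of 0.04 where the median over all genes was -0.01. After cyclic loess, which levels the arrays along the intensity range, 2 of the 8 were positive and the median was -0.05, so the set has no settled direction. Of all 22180 genes, 10537 were positive as deposited and 11236 after cyclic loess. As deposited, the 95% confidence intervals of the 8 genes reached from 0.836-fold (Sgcb) to 1.26-fold (Utrn). These bounds hold for that scaling only, since after cyclic loess the difference was -0.17 in Dmd and -0.086 in Sgcb.

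**Figure D1:**
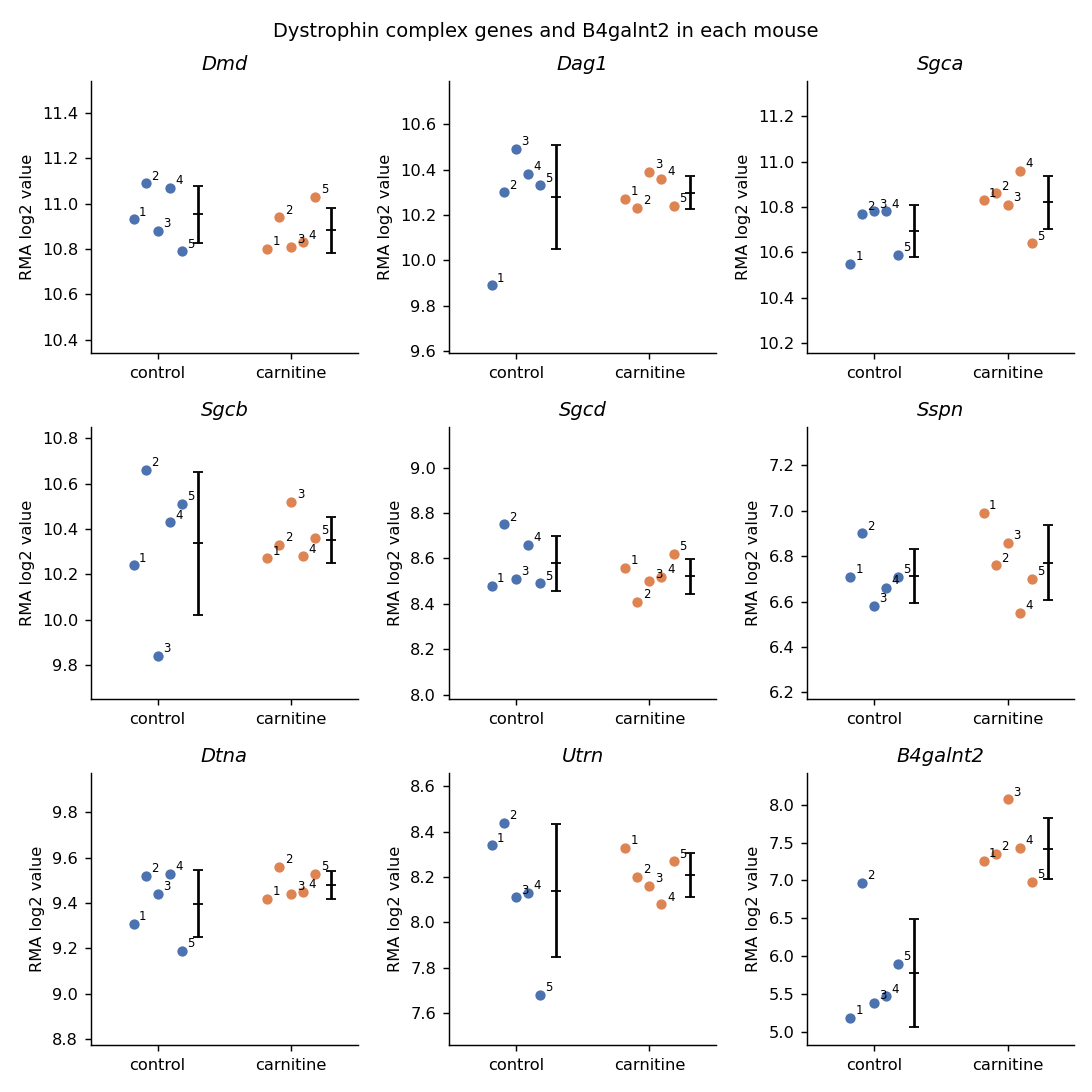
RMA log2 value of each gene in each mouse (points, numbered by replicate) for control and carnitine, with the mean and SD (n = 5) as bars at the right of each group. The 8 complex genes share an axis span and overlap between the diets, whereas the axis of B4galnt2 is wider and its groups run from 5.18 to 6.97 and from 6.98 to 8.07.

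Dmd, whose product is the rod that links actin to the membrane, measured 10.93, 11.09, 10.88, 11.07 and 10.79 in control replicates 1 to 5 and 10.80, 10.94, 10.81, 10.83 and 11.03 in carnitine replicates 1 to 5. The carnitine mice lay inside the control range throughout. The means were 10.95 ± 0.13 and 10.88 ± 0.10 (SD, n = 5 each). The difference was -0.070 (SE 0.083, adjusted p = 0.82), which corresponds to 0.953-fold with a 95% confidence interval from 0.842 to 1.08. After cyclic loess the difference was -0.17 with an unadjusted p of 0.039 and an adjusted p of 0.86 in limma.

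Dag1 encodes both dystroglycan subunits, the laminin receptor and its membrane anchor. It measured 9.89, 10.30, 10.49, 10.38 and 10.33 in control and 10.27, 10.23, 10.39, 10.36 and 10.24 in carnitine mice. Control replicate 1 was the lowest of the 10, and the other 9 lay within 10.23 to 10.49. The difference was 0.02 (SE 0.10, adjusted p = 0.96) and -0.077 without that mouse.

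Of the sarcoglycans, Sgca, the muscle-specific alpha subunit, had the largest difference of the set. It measured 10.55, 10.77, 10.78, 10.78 and 10.59 in control and 10.83, 10.86, 10.81, 10.96 and 10.64 in carnitine mice. Of the carnitine mice, 4 of 5 were above every control, and carnitine replicate 5 fell among the lower controls. The difference was 0.13 (SE 0.084), or 1.09-fold with an interval from 0.963 to 1.24, and did not pass (unadjusted p = 0.15, adjusted p = 0.73).

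Sgcb, the beta subunit that is also made outside striated muscle, was the most variable of the 8. It measured 10.24, 10.66, 9.84, 10.43 and 10.51 in control and 10.27, 10.33, 10.52, 10.28 and 10.36 in carnitine mice. The control mice held both the lowest value (replicate 3) and the highest (replicate 2), with an SD of 0.32 against 0.10 in carnitine. Its difference was 0.016 (SE 0.13, adjusted p = 0.98). Sgcd, the delta subunit that pairs with beta early in assembly, ran from 8.48 to 8.75 in control (median 8.51) and from 8.41 to 8.62 in carnitine (median 8.52), with a difference of -0.06 (SE 0.084, adjusted p = 0.86).

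Sspn, the tetraspanin-like sarcospan that sits with the sarcoglycans, had the dimmest signal of the set and ran from 6.58 to 6.90 in control and from 6.55 to 6.99 in carnitine (difference 0.06, SE 0.10, adjusted p = 0.88). Its other probe set gave 6.02 ± 0.12 for control and 6.04 ± 0.21 for carnitine mice (SD, n = 5 each), and the 2 probe sets correlated at 0.37 over the 10 mice after each diet's mean was removed. Both gave small positive differences, although the mice they ranked high were only partly shared.

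Dtna, the cytoplasmic partner that holds syntrophins, ran from 9.19 to 9.53 in control (median 9.44) and from 9.42 to 9.56 in carnitine (median 9.45). Control replicates 5 and 1, at 9.19 and 9.31, were the lowest of the 10, and the other 8 mice lay within 9.42 to 9.56. The difference was 0.08 (SE 0.085, adjusted p = 0.80).

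Utrn measured 8.34, 8.44, 8.11, 8.13 and 7.68 in control and 8.33, 8.20, 8.16, 8.08 and 8.27 in carnitine mice. Control replicate 5 was the lowest, with 8.08 the next value, and the carnitine mice lay inside the range of the controls. The means were 8.14 ± 0.29 and 8.21 ± 0.097 (SD, n = 5 each), and they differed by 0.068 (SE 0.12, adjusted p = 0.89) with an interval from 0.871-fold to 1.26-fold. Without control replicate 5 the difference was -0.047.

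**Figure D2:**
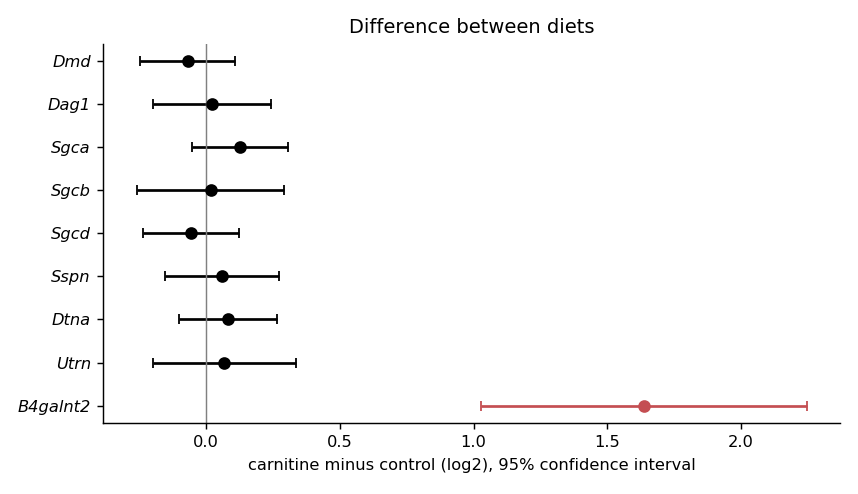
Difference between the diets (carnitine minus control, log2) of the 8 complex genes and of B4galnt2 (red), with 95% confidence intervals from limma (n = 5 per group). The intervals of all 8 complex genes include 0, and that of B4galnt2 runs from 1.03 to 2.25.

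The value of Utrn less that of Dmd was taken within each array to ask whether the homologue and dystrophin differed unequally. It was -2.81 ± 0.21 for control mice, from -3.11 to -2.59, and -2.67 ± 0.12 for carnitine mice (SD, n = 5 each), from -2.76 to -2.47. The difference of 0.14 did not pass an exact two-sided permutation test over the 252 assignments of arrays (p = 0.23, where the smallest possible is 0.0079). Without control replicate 5 it was 0.06 and without carnitine replicate 1 it was 0.09.

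Among mice of 1 diet, most of the genes varied little. The SD within a diet of Sgcd, Dtna, Dmd and Sgca lay at the 10.1, 15.0, 16.3 and 16.6 percentile of the 12912 genes above the median level, those of Sspn and Dag1 at 33.1 and 48.7, and those of Utrn and Sgcb at 73.5 and 79.2. B4galnt2 stood at 99.4. In 6 of the 8 the SD was larger in control than in carnitine mice, against 75.0% of all genes, so the set did not stand out in this respect. Without control replicate 5 the count was also 6, against 60.9% of all genes.

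The genes did not move as 1 block from mouse to mouse. In control replicate 2 all 8 were above their diet mean, and it held the highest of the 10 values for 4 of them, Dmd, Sgcb, Sgcd and Utrn. Control replicate 5 held the lowest value of 3, Dmd, Dtna and Utrn, but was above its diet mean in Dag1 and Sgcb. Control replicate 1 was lowest in Dag1 and Sgca, and 7 of its 8 values were below the diet mean, with Utrn the exception. Over the 28 pairs of genes, the correlation of values centred on their diet mean (n = 10 mice) ran from -0.41 (Dag1 with Utrn) to 0.84 (Dmd with Dtna), with a median of 0.23 and 21 pairs above 0.

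**Figure D3:**
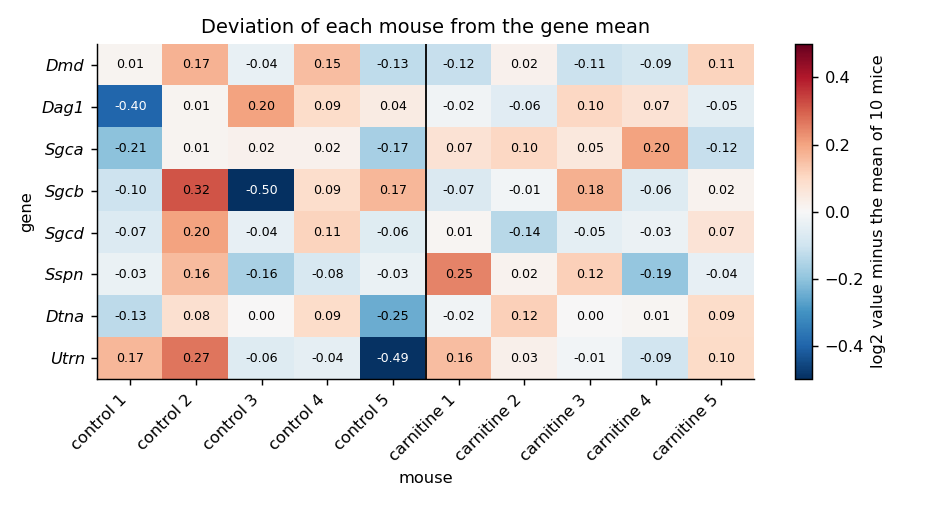
Log2 value of each gene in each mouse less the gene's mean over the 10 mice (colour and number; red above, blue below, colour scale from -0.5 to 0.5), with control left and carnitine right of the line. The widest deviations, Sgcb in replicate 3 (-0.50), Utrn in replicate 5 (-0.49) and Dag1 in replicate 1 (-0.40), fall in different control mice.

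Dmd and Dtna, whose proteins bind each other, had the highest correlation of the 28 pairs. The pairs described here were picked for their values, so no permutation test is given for them and the limma p below is descriptive. The centred values of Dmd and Dtna had a Pearson r of 0.84 and a Spearman rho of 0.77 over the 10 mice. Within each diet r was 0.88, and it was 0.87 without control replicate 2 and carnitine replicate 5, the mice farthest out in Dmd. In a limma fit of every gene on Dmd with diet as a term, the slope of Dtna was 0.82 (SE 0.36, adjusted p = 0.86). No gene passed adjustment in that fit (0%, 5.76% with an unadjusted p below 0.05), and Dtna stood at rank 51 of 11751 named genes above the median level by r. The 6 genes nearest to Dmd were Pphln1 (r = 0.94), Itfg2 (0.94), Tstd2 (0.92), the splicing factor Snw1 (0.92), Mtdh (0.92) and the RNA-binding protein gene Hnrnpk (0.91). Sgcd followed Dmd with r = 0.66, which was 0.32 without the same 2 mice, and Dag1 followed Sgca with r = 0.60 (rho 0.62), which was 0.39 without control replicates 1 and 3.

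The spread of values on the whole array ran with Utrn. Its centred values correlated with the centred interquartile range of the array at r = 0.94 and rho = 0.81 (n = 10), with r = 0.73 without control replicates 2 and 5. Without control replicate 5 alone r was 0.79 for Utrn and 0.76 for Sspn, which had 0.39 over all 10 mice. These relations were chosen after their values were seen and carry no permutation test. In a limma fit of every gene on Utrn with diet as a term, 12.2% of the genes passed an adjusted p of 0.05, but 0 of the other 7 genes of the set (lowest adjusted p 0.27, for Dmd). Without control replicate 5 no gene passed in limma, and 2420 had an unadjusted p below 0.05. The 6 genes nearest to Utrn were Cyld (r = 0.99), Fip1l1 (0.99), Smchd1 (0.98), Zfp868 (0.98), Zfp972 (0.98) and Erg (0.98), a transcription factor of endothelial cells, and r was from 0.94 to 0.98 in these 6 without control replicate 5. Utrn is also made in blood vessels, and the mean of 10 endothelial markers ran with it (r = 0.84, rho = 0.71). Within a diet r was 0.96 in control but 0.28 in carnitine mice. It was 0.50 without control replicates 1 and 5, and 0.56 without control replicate 5. Over genes above the median level, the median absolute r with Utrn was 0.52. The endothelial mean was 8.41, 8.30, 8.14, 8.07 and 7.66 in control and 8.35, 8.19, 8.13, 8.09 and 7.91 in carnitine mice, with all 10 markers above the median probe set level. The parts of vessels and of array range in the levels of Utrn and Sspn were not tested.

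B4galnt2 measured 5.18, 6.97, 5.38, 5.47 and 5.90 in control and 7.26, 7.35, 8.07, 7.43 and 6.98 in carnitine mice. All 5 carnitine values lay above the controls, the nearest being 6.98 and 6.97, with control replicate 2 close to the carnitine mice and the other 4 near the median probe set level of 5.80. Its difference of 1.64 (SE 0.28, adjusted p = 0.34) was 1.94 with an adjusted p of 0.0040 without control replicate 2. Against that 3.11-fold contrast, no complex gene differed by more than 1.09-fold as deposited.

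To relate the genes to B4galnt2 apart from diet, each gene was fitted on B4galnt2 with diet as a term, so that a slope is the log2 change of the gene per log2 unit of B4galnt2 among mice of 1 diet. All 8 slopes were positive as deposited, with a median of 0.07, but 0 of 8 passed adjustment in limma, as did 0% of all genes, and 1 of 8 (Sgcb) had an unadjusted p below 0.05, against 2.36% of all genes. The signs of 5 of them (Dmd, Dag1, Sgcd, Dtna and Utrn) turned under at least 1 other setting or omission of a mouse.

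Sgcb had the steepest slope, 0.28 (SE 0.10, 95% confidence interval from 0.06 to 0.50, unadjusted p = 0.018, adjusted p = 1.00). In control replicate 2, the control with the most B4galnt2, Sgcb was the highest of the 10 mice, and in carnitine replicate 3, the mouse with the most B4galnt2, it was the highest of its diet. The centred values gave r = 0.69 and rho = 0.72 (exact permutation within diets, p = 0.098 and 0.057), with 0.70 in control and 0.74 in carnitine mice. Without those 2 mice, which lie farthest out in B4galnt2, r was 0.41. Without control replicate 2 alone the slope was 0.29 with an unadjusted p of 0.13. Sspn, which had r = 0.52 (exact permutation p = 0.12), came to -0.02 without those 2 mice.

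Utrn encodes the protein that forced expression of B4galnt2 is known to spread beyond the junction. The arrays measure RNA of whole muscle and do not show where that protein lies. In limma Utrn had a slope of 0.04 (SE 0.13, 95% confidence interval from -0.23 to 0.31, unadjusted p = 0.73, adjusted p = 1.00). Its r was 0.12 and its rho -0.27 (exact permutation p = 0.79 and 0.51). Control replicate 2 was highest in Utrn, but carnitine replicate 3, with the most B4galnt2, was the second lowest of its diet at 8.16. Without these 2 mice r was -0.90, and without control replicate 2 the slope was -0.36 (unadjusted p = 0.053, adjusted p = 0.65). Dag1, which encodes a substrate of the enzyme, had a slope of 0.09 (SE 0.10) and r = 0.31, or 0.47 without the 2 mice. The r of Dmd was 0.09, that of Dtna 0.14, that of Sgca 0.32 and that of Sgcd 0.42, and without the 2 mice they were -0.58, -0.44, 0.35 and -0.29.

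**Figure D4:**
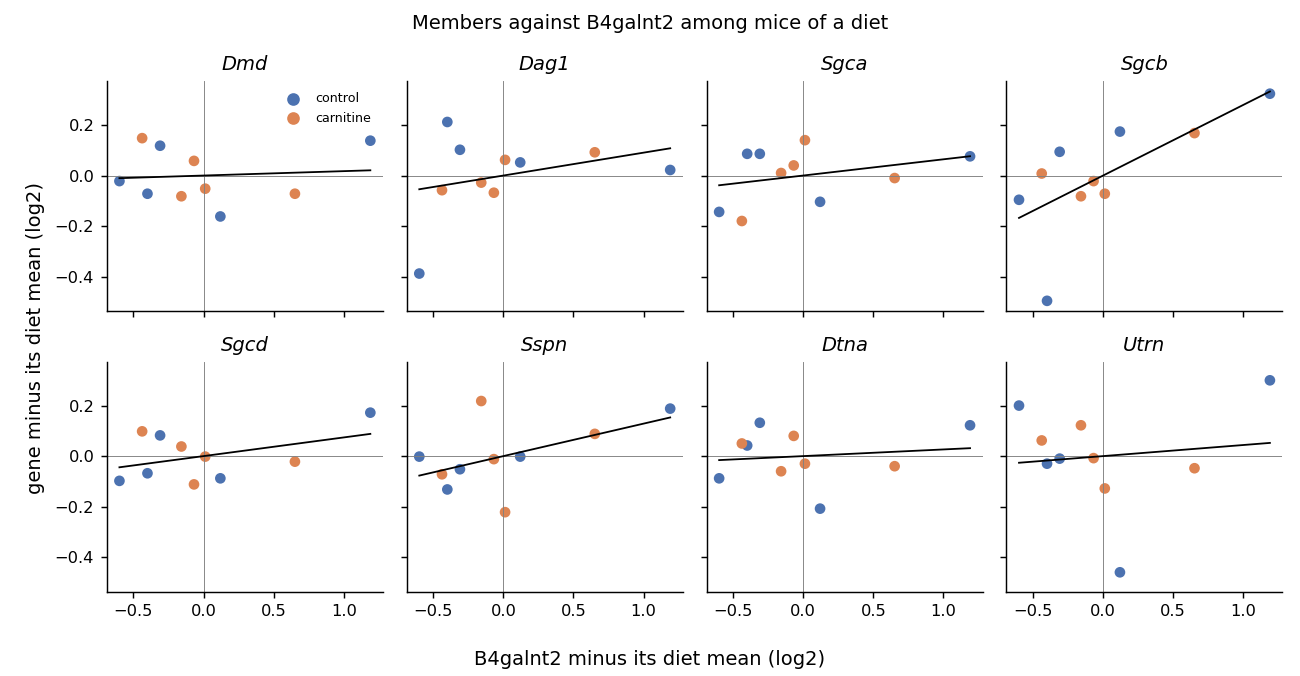
Each gene against B4galnt2 in the 10 mice, both as log2 values less the mean of the mouse's diet, with the limma slope as a line. The control mouse at the far right (replicate 2) lies above 0 in every panel, and the line is steepest in Sgcb (0.28).

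Of 25 measured complex proteins and partners outside the set, 14 had a positive and 11 a negative difference (median 0.05). In limma 0 passed the adjusted threshold, and 1 had an unadjusted p below 0.05, against 6.97% of all genes. After cyclic loess 5 had an unadjusted limma p below 0.05, 2 higher and 3 lower, and the adjusted count was again 0. Of all 22180 genes, 632 were then higher and 647 lower at that unadjusted threshold. The 1 gene as deposited was Ky, whose loss in mice causes a myopathy of postural muscle, at 0.32 (SE 0.11, adjusted p = 0.71). The next were Dtnb, the second dystrobrevin gene, at 0.19, the actin cross-linker Flnc, which binds sarcoglycans, at -0.34, Mlf1 at 0.33 and epsilon-sarcoglycan (Sgce) at 0.19. Plec, whose plectin anchors the complex to the cytoskeleton, differed by -0.002 (SE 0.11), the caveolin gene Cav3 by 0.24 (SE 0.15) and Nos1, the nitric oxide synthase held by the complex, by 0.25 (SE 0.19).

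Of 20 basement membrane ligands and integrins, 17 were positive as deposited (median 0.09) but 9 after cyclic loess (median -0.002), and 0 passed in limma. The laminin chain Lama4 differed by 0.31 (SE 0.12, unadjusted p = 0.024, and no listed gene below 0.05 without control replicate 5), Lamb1 by 0.19, Nid2 by 0.16, Bgn by 0.27 and Itga5 by -0.16. Lama2, the main laminin chain around fibres, differed by 0.13 (SE 0.16), the junction chain Lama5 by 0.08 (SE 0.088) and agrin (Agrn) by -0.05 (SE 0.11). Fibroblast markers, at 10 of 10 positive with a median of 0.17, leaned the same way; their mean was 7.43 to 8.13 in control and 7.71 to 8.27 in carnitine mice, and tendon markers were 7 of 10 positive (median 0.315), with means of 6.49 to 6.82 and 6.63 to 7.23. Their part in these values was not tested.

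Among 17 enzymes that build the laminin-binding sugar chain of alpha-dystroglycan, 12 were positive (median 0.10), against 47.7% of all genes. In limma 0 passed and 4 had an unadjusted p below 0.05, against 6.97% of all genes. These were Dpm1 (0.19, SE 0.077), Dolk (0.20, SE 0.089), B3galnt2 (0.21, SE 0.094) and, on the lower side, Large2 (-0.35, SE 0.13). Dpm1, which makes dolichol-phosphate mannose, had the diets fully separated, as did 1.11% of all genes. Large2, a xylosyl and glucuronyl transferase, had a mean of 5.97 in control and 5.62 in carnitine mice, around the median probe set level. After cyclic loess 1 listed enzyme had an unadjusted limma p below 0.05, on the lower side, against 632 higher and 647 lower of all 22180 genes.

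Of 15 membrane repair genes, 13 were positive (median 0.16), against 47.7% of all genes. After cyclic loess 11 were positive (median 0.08), and 12 were without control replicate 5 (median 0.09). In limma 0 passed and 2 had an unadjusted p below 0.05 as deposited, against 6.97% of all genes. These were Cavin1, a coat protein of caveolae, at 0.26 (SE 0.094) and Ahnak at 0.23 (SE 0.10). After cyclic loess 0 genes of the list had an unadjusted limma p below 0.05 (0.077 for Cavin1, 0.24 for Ahnak). Of all 22180 genes, 632 were then higher and 647 lower at that threshold. Without control replicate 5 only Cavin1 had such a p, against 568 higher and 663 lower of all genes. Dysferlin (Dysf) differed by 0.03 (SE 0.11). Of 15 genes of the neuromuscular junction, where utrophin gathers, 9 were positive (median 0.05, but 6 with a median of -0.01 after cyclic loess), 0 passed and 0 had an unadjusted p below 0.05, with rapsyn (Rapsn) at 0.22 (SE 0.11) and the adult receptor subunit Chrne at 0.19 (SE 0.13). Of 9 genes of regenerating or denervated fibres, in which Utrn is known to be higher, 3 were positive (median -0.004) as deposited, and 0 passed. After the arrays were brought to 1 median 6 were positive (median 0.046). Of all 22180 genes, 10537 were positive as deposited and 13757 after that centring. Among the 9 genes, the fetal receptor subunit Chrng, near the median probe set level, had an unadjusted limma p of 0.023 at -0.42 (SE 0.17), and of 0.062 without control replicate 5.

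**Figure D5:**
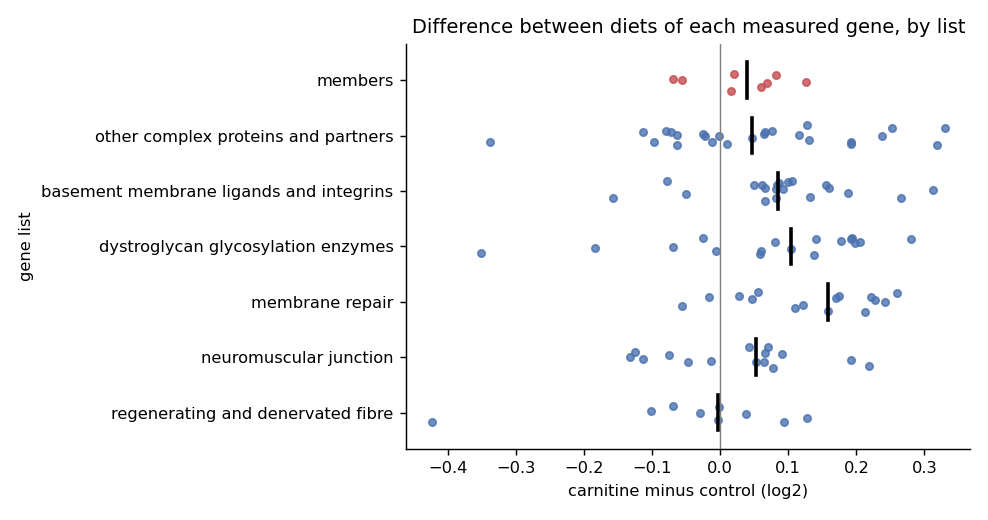
Difference between the diets (carnitine minus control, log2) of each measured gene (points) of the 8 complex genes (top, red) and 6 further lists, with the list median as a black bar. The points of the complex genes span -0.07 to 0.13, and the other lists reach from -0.42 (Chrng) to 0.33 (Mlf1).

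Levels of other cell types overlapped between the diets. The mean of 10 endothelial markers was 7.66 to 8.41 in control and 7.91 to 8.35 in carnitine mice (4 positive, median -0.01). After the arrays were brought to 1 median 8 of them were positive, as were 13757 of all 22180 genes. The mean of 10 smooth muscle and pericyte markers, cells that make Sgcb and Sgcd too, was 8.35 to 8.58 in control and 8.44 to 8.60 in carnitine mice (7 positive, median 0.08). Slow-fibre markers had means of 8.64 to 9.49 in control and 6.88 to 9.29 in carnitine mice. Of the 10, 9 were negative with a median of -0.88, and 7 had an unadjusted p below 0.05 in limma, against 6.97% of all genes. No complex gene had a difference of that size. In carnitine replicates 1 to 5 the slow-fibre mean was 8.125, 7.37, 9.00, 9.29 and 6.88. Dmd was 10.80, 10.94, 10.81, 10.83 and 11.03 in the same mice, highest where the slow-fibre mean was lowest. Sgca was 10.83, 10.86, 10.81, 10.96 and 10.64, lowest where that mean was lowest. The relation of the complex genes to slow-fibre level was not tested.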

How the data were processed

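Gastrocnemius RNA of 10 mice was measured on Affymetrix Mouse Gene 2.0 ST arrays, 1 array a mouse. The deposited values are log2 expression made by the authors with RMA in Affymetrix Expression Console, per the submitters' processing notes. Versions: not given in the sources used here; no genome build is named. RMA equalises arrays and compresses dim signals, so a change in total RNA is not seen. Of 34390 probe sets, 23521 had exactly 1 symbol in the platform annotation, which gave 22180 genes. Diets were compared with limma 3.58.1 (R 4.3.3, linear model and moderated variances with an intensity trend). Slopes on B4galnt2, Dmd and Utrn were fitted with diet as a term. The diet comparison and the slope on B4galnt2 were tested on simulated data in which genes varied independently. The slopes on Dmd and Utrn were not simulated. Correlations used values centred on diet means, with exact two-sided permutation within diets (14400 pairings) for the 8 relations with B4galnt2, whose p are unadjusted. Other pairs were chosen after their values were seen and carry no permutation p. The limma p on Dmd and Utrn come from fits of every gene and are descriptive. The number of arrays limits precision, and p-values measure the spread between these mice. The 8 genes and all lists were chosen with earlier results of these data known. All 8 are named, with B4galnt2, up to 5 genes per pathway list by smallest unadjusted p and the 6 nearest to Dmd and to Utrn by r; Plec, Cav3, Nos1, Lama2, Lama5, Agrn and Dysf were added for their role, after their values were seen. Alternatives were a replicate block, 2 other scalings, array weights, removal of dim genes, changed variance settings, averaged probe sets and the omission of each array.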

Additional observations from a re-analysis of the deposited data

Results flagged for a closer look

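A mouse far from the others was looked for in 104 groups of 5 mice. These covered the 8 complex genes, B4galnt2, the value of Utrn less Dmd and the 6 genes nearest to Dmd and to Utrn. They also covered the 5 genes with the smallest unadjusted limma p in each of the 6 pathway lists. Genes added for their role, such as Plec and Dysf, were not covered. Chance gives about 5.2, and 3 were found, none in the 8 complex genes or B4galnt2. Itga5 was 7.12 in control replicate 5 against 6.81 to 6.88 in the other controls. Ahnak was 9.83 in carnitine replicate 2 against 9.36 to 9.47. Chrne was 8.31 in control replicate 3 against 7.65 to 7.84.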

How the results depend on the processing

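Over 145 refits of the 8 diet differences and 153 refits of the slopes on B4galnt2, 0 passed an adjusted p of 0.05 in limma (lowest adjusted p 0.53 and 0.65). Signs turned for 4 differences: after cyclic loess Dag1 was -0.082, Sgcb -0.086, Dtna -0.024 and Utrn -0.021, with a set median of -0.053, and with array weights Utrn was -0.025. With mice left out in turn, Dag1 ran from -0.077 to 0.073, Sgcb from -0.11 to 0.10 and Utrn from -0.047 to 0.14. Slopes turned under the replicate block for Dmd (-0.047) and Dtna (-0.066), after cyclic loess for Dmd (-0.0060), and without the diet term for Dmd (-0.026) and Sgcd (-0.0032). With mice left out, the slope ran from -0.17 to 0.052 in Dmd, -0.021 to 0.23 in Dag1, -0.062 to 0.10 in Sgcd, -0.12 to 0.048 in Dtna and -0.36 to 0.12 in Utrn. The difference in B4galnt2 ran from 1.48 to 1.94, and the count of genes past the threshold between diets from 0 to 1. The 2703 genes called on Utrn were 4381 after median centring, 41 after cyclic loess, and from 0 to 4007 with mice left out (alternatives chosen after seeing the data). Mice of the 2 diets that share a replicate number had correlations of deviations from -0.13 to 0.24. These have no reference values and the labels name no cage, so whether replicate numbers pair the mice cannot be decided. The replicate block changed no call, but 0 genes passed between diets or on B4galnt2 with or without it, so this does not exclude pairing. Genes with an unadjusted p below 0.05 were 1546 between diets, 844 without dim genes and 2560 without control replicate 2; for the slope on B4galnt2 they were 524, and 268, 1656 and 852 without dim genes, control replicate 2 and control replicate 5, and 1660 without the diet term. The cause of these changes was not tested.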
